A study of Homo sapiens with 11 samples.

Results

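Nearly always included exons are cassette exons that almost every transcript of their gene retained in both lines of an HCC78 comparison. HCC78 is an established human lung adenocarcinoma cell line that carries an SLC34A2-ROS1 fusion. For each skipped-exon event, a percent spliced in value (PSI, written here as a fraction from 0 to 1) had been estimated on an S34F side and on a wild-type side. An event was taken when both sides held at least 20 reads and the mean of both PSI values was at least 0.9. This rule kept 6474 of 44898 events, which is 14.4% of the table and 17.95% of the 36059 events with enough reads. Because the PSI values themselves chose the exons, all PSI differences are given as a description and without a test.

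U2AF1 is the small subunit of the U2 auxiliary factor, which recognises the AG dinucleotide at the 3′ end of introns and helps to recruit the spliceosome to the exon that follows. S34F replaces a serine in its first zinc finger and is a recurrent mutation in lung adenocarcinoma and myeloid neoplasms. Exons with strong splice sites are usually retained in every transcript, so a change in such an exon is read as a small skipped fraction appearing or disappearing.

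The lines carried doxycycline-inducible, FLAG- and HA-tagged U2AF1, either wild-type (WT) or S34F, and were profiled with (dox+) or without (dox-) doxycycline, next to parental HCC78. Parental cells, WT dox-, WT dox+ and S34F dox+ had 2 libraries each, and S34F dox- had 1. Every group already held some mutant transcript. By the labels, S34F made up 32% of U2AF1 mRNA in both parental samples, 33% in both WT dox- samples and 28% in S34F dox-, against 12% and 14% after induction of the wild-type form and 62% and 65% after induction of S34F. The contrast is therefore one of more against less S34F, not of mutant against none. The WT dox+ side is not a baseline either. Wild-type transcript made up 88% and 86% of U2AF1 mRNA there, against 68% in both parental samples. A difference between the sides, also where called lost or gained in S34F, does not tell which side moved. Nothing in the labels says that the 2 libraries of a group came from separate cultures, so p-values measure the spread between these libraries only.

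The expression values fitted the label of an epithelial line. EPCAM lay between 407 and 545 FPKM, and KRT8, KRT18 and KRT19 were all above 1000 FPKM in each library. PTPRC, a leukocyte marker, reached at most 2.71 FPKM, and COL1A1, a fibroblast marker, at most 7 FPKM. U2AF1 itself stood at 164 and 223 FPKM in S34F dox+ and at 278 and 299 FPKM in WT dox+, against 103 to 115 FPKM in the dox- and parental libraries. The labels give the parental samples as untreated with doxycycline, while the study's supplement differs on this. The groups of total U2AF1 did not overlap, but the log2 difference of -0.59 (SE 0.15) did not pass (limma with Benjamini-Hochberg adjustment, adjusted p = 0.531). Leaving out the first S34F dox+ library made it -0.37, and leaving out the second made it -0.81.

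The splicing table has 1 PSI per side, so it carries no replicate error. Its columns do not name the libraries behind a side. The S34F side was taken as the first from the order in the table's name and the dox+ libraries from the study's methods. Across 4015 genes with such an exon, the ratio of reads between the sides ranked with the FPKM ratio of the dox+ lines (Spearman's rho 0.56) more closely than with that of the dox- lines (0.19), a description across genes that share libraries.

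The 6474 exons lay in 4015 genes, of which 2519 held 1 such exon and 1496 held 2 or more. MUC1, a membrane mucin of epithelial cells, held the most, with 18. Genes listed as protein coding held 6219 of them. In these counts an event belongs to the first gene listed for it. The exons were not all separate units, since they used 6228 distinct acceptors, 217 acceptors occurred in 2 or more events, and 816 events were listed under several genes. The median distance from the upstream donor to the exon's acceptor was 2657.5 bases, with a range of 69 to 490560 bases. The acceptors lay at a median of 51.7% of the way along the genomic span, introns included, of the transcripts listed for the event.

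Inclusion of these exons hardly differed between the sides. The median difference (S34F minus WT) was 0 and the mean was -0.0053, with the 5th percentile at -0.06 and the 95th at 0.05. Of the 6474 exons, 4365 (67.4%) were within 0.02 and 1490 (23.0%) were equal at the 2 decimals given. PSI was at least 0.95 on both sides for 3564 exons (55.1%) and 1.00 on both for 203. The rule allows no difference beyond 0.2, and the observed ones ran from -0.15 to 0.15.

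The distribution leaned to the lower side. PSI was lower in S34F for 2991 exons (46.2%) and higher for 1993 (30.8%). A PSI lower by at least 0.05 was found for 638 exons (9.85%), and one higher by at least 0.05 for 348 (5.38%). Over all skipped exons with enough reads, these shares were 22.1% and 25.7%. By at least 0.10, 81 exons were lower and 39 were higher, while the shares over all skipped exons were 13.6% and 15.2%. The rule limits how far a member can move, so these shares say nothing of the exons beyond it.

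**Figure D1:**
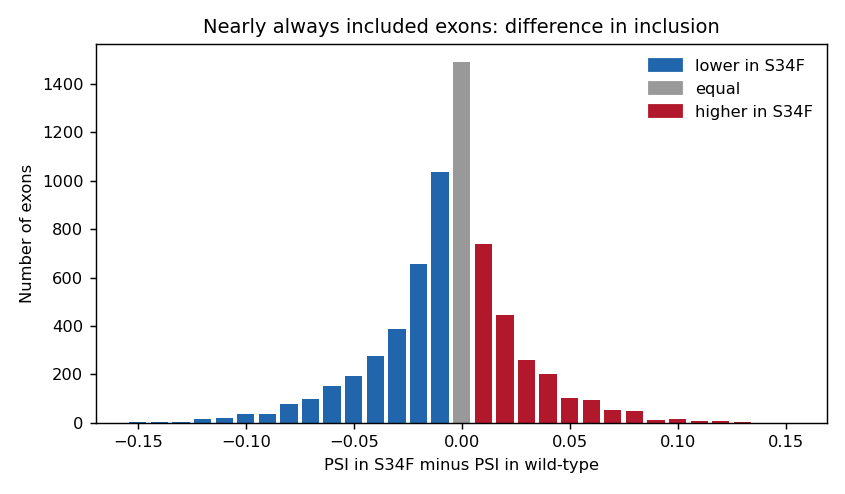
Number of nearly always included exons (y axis) at each difference in PSI, S34F minus wild-type, in steps of 0.01 (x axis), coloured by direction. The tallest bar is the 1490 exons with equal PSI, and the bars on the lower side hold 2991 exons against 1993 on the higher side.

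The lean varied with the number of reads. Among the 323 exons with 20 to under 100 reads on the side with fewer reads, 219 were lower and 79 were higher in S34F, with a mean difference of -0.019. The mean was -0.0091 over 590 exons with 100 to under 200 reads, -0.0079 over 1714 exons with 200 to under 500, and -0.0052 over 1576 exons with 500 to under 1000. In the 2271 exons with at least 1000 reads, 798 were lower and 765 were higher, and the mean was -0.00042. The lean was thus close to absent in the events with the most reads. These reads are not those of the exon alone, since distant events of 1 gene had nearly the same number. The 4 ATR events, for example, had 1134 to 1140 reads in S34F. The bins therefore sort the exons largely by their gene.

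Mostly skipped exons, those with a mean PSI of at most 0.1, showed the opposite lean. Of their 9250 events, 1901 were lower and 4992 were higher in S34F. Their mean difference was 0.017 at 20 to under 100 reads and 0.0047 at 1000 reads or more. At both ends of the scale the S34F value was on average the one nearer to the middle.

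Read numbers differed between the sides in the same way for almost every event. The median was 648 reads in S34F and 959 reads in WT, with a median ratio of 0.677. Only 75 of the 6474 exons had more reads on the S34F side, and 22 of those were lower and 43 higher in S34F. The part of the read difference in the lean was not tested.

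**Figure D2:**
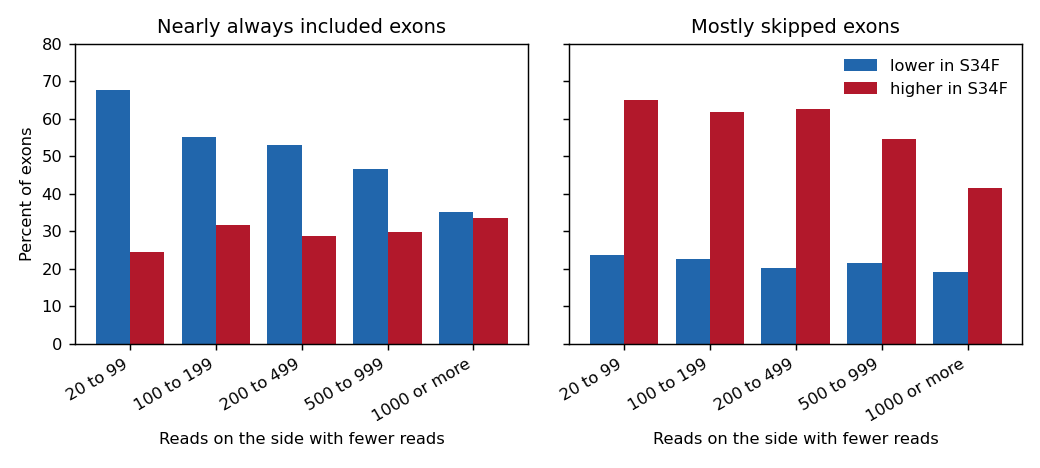
Percent of exons with a lower (blue) or higher (red) PSI in S34F (y axis) by the reads on the side with fewer reads (x axis), for nearly always included exons (left) and mostly skipped exons (right). On the left the blue bars shrink from 67.8% to 35.1% as reads increase, and on the right the red bars shrink from 65.0% to 41.6%.

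An exon was counted as lost in S34F at a PSI lower by at least 0.10 with a Bayes factor of at least 5, and as gained at the same thresholds in the other direction. The Bayes factor is the weight MISO gives to a difference over no difference. By this measure 5 exons (0.0772%) were lost and 7 (0.108%) were gained, where 0.749% and 0.807% of all skipped exons were. These 12 exons came from 12 different genes. The rule limits how far a member can move, so nothing is read from the shares at 0.10 being below those of all skipped exons. At a Bayes factor of at least 5 without a limit on the difference, 8 of the 6474 exons were lower and 31 were higher. Over all 36059 skipped exons with enough reads, 281 (0.779%) were lower and 328 (0.91%) were higher. For 6372 exons (98.4%) the Bayes factor was under 1.

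**Figure D3:**
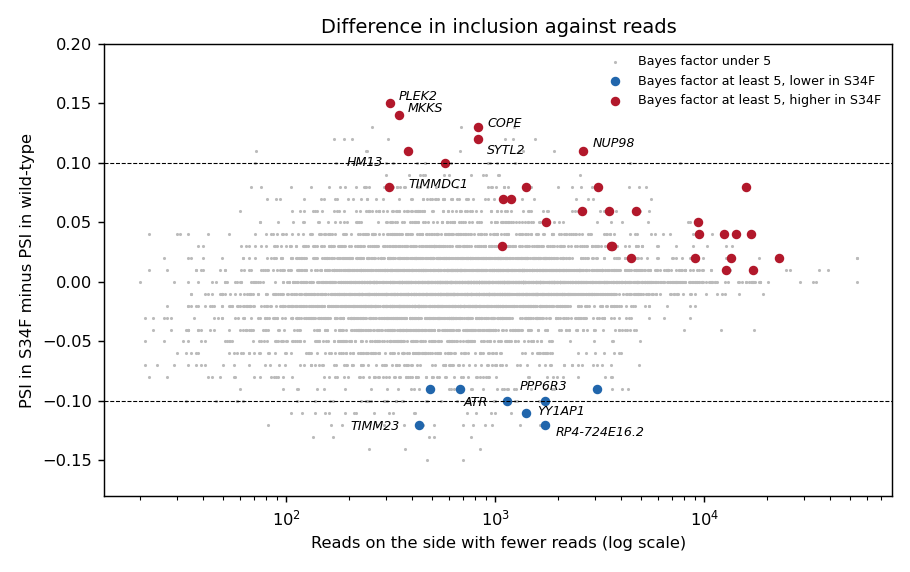
Difference in PSI, S34F minus wild-type (y axis), against the reads on the side with fewer reads (x axis, log scale), with 1 point per exon and dashed lines at differences of 0.10. Grey points have a Bayes factor under 5, the 8 blue and 31 red points reach it, and the 12 points on or beyond the dashed lines are named.

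The lost exons lay in PPP6R3, YY1AP1, TIMM23, ATR and ZNF217. In hg19 coordinates, each is given by the interval from the upstream donor to the downstream acceptor, with the position where the skipped exon begins. The end of the exon is not in the event's name.

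PPP6R3 is a regulatory subunit of protein phosphatase 6, and its exon had the most weight of the 5. The event spans chr11:68287119-68312306 on the plus strand, with the exon starting at 68305127. PSI was 0.89 in S34F (1737 reads) and 0.99 in WT (3018 reads), so that skipping went from 1% in WT to 11% in S34F, with a Bayes factor of 2268. The other nearly always included exon of PPP6R3 had a PSI of 0.87 in S34F and 0.96 in WT, but its Bayes factor was 0.53.

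YY1AP1 encodes a partner of the transcription factor YY1. The event at chr1:155649303-155657862 (minus strand, exon start 155650247) had a PSI of 0.87 in S34F and 0.98 in WT, with 1410 and 2031 reads and a Bayes factor of 47.5. The same acceptor was also listed with another donor, and there the exon was mostly skipped on both sides, at 0.03 in S34F and 0.07 in WT. The other 4 nearly always included exons of YY1AP1 differed by 0.03 at most.

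TIMM23 is the channel subunit of the complex that imports proteins across the inner mitochondrial membrane. Its exon at chr10:51607098-51612904 (minus strand, exon start 51610451) had a PSI of 0.87 in S34F and 0.99 in WT. The reads numbered 430 and 759 and the Bayes factor was 35.4. A near-identical copy of TIMM23 exists on the same chromosome, so the assignment of its reads is uncertain. The other 2 exons of TIMM23 differed in opposite directions, from 0.95 in WT to 0.86 in S34F and from 0.90 in WT to 0.95 in S34F, with Bayes factors of 0.41 and 0.28.

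ATR is the kinase that signals replication stress and single-stranded DNA. The event at chr3:142278283-142280085 (minus strand, exon start 142279296) lies 14.2% of the way along the genomic span of its listed transcripts. PSI was 0.89 in S34F and 0.99 in WT with 1140 and 1852 reads, and the Bayes factor was 9.29. The 3 other ATR exons had differences from -0.05 to 0.06, so the difference was not shared along the transcript.

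The remaining lost exon was listed both under an antisense gene known by its clone name (given in the plots) and under ZNF217, a zinc-finger transcription factor amplified in several carcinomas. The event at chr20:52185803-52192266 (minus strand, exon start 52188392) had a PSI of 0.85 in S34F and 0.97 in WT, from 1724 and 2636 reads. Its Bayes factor of 5.09 was just over the threshold. The antisense gene was at or below 0.82 FPKM in every library, whereas ZNF217 lay between 16.0 and 20.7 FPKM.

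Another 3 exons were lower with a Bayes factor of at least 5 but by less than 0.10. AKR7A2, an aldo-keto reductase, had a PSI of 0.90 in S34F and 0.99 in WT with a Bayes factor of 21.2. TOP2B, a DNA topoisomerase, stood at 0.87 in S34F and 0.96 in WT with a Bayes factor of 5.94. CBWD5, a member of a family of near-identical copies, stood at 0.89 in S34F and 0.98 in WT at the threshold itself. The high WT values of these 8 exons follow from the rule on the mean.

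Most of the exons with a large decrease had little weight. Of the 81 exons that were lower by at least 0.10, which came from 78 genes, 61 had a Bayes factor under 1 and 15 had one from 1 to under 5. Their median reads were 368 in S34F and 529 in WT, below those of all 6474 exons. The largest decreases, named here after their values were seen, were those of MUC1, from 0.98 in WT to 0.83 in S34F with a Bayes factor of 1.51, and RP11-350J20.12, from 0.99 in WT to 0.84 in S34F with one of 0.83. USP10, a deubiquitinase, lay just inside the rule at 0.83 in S34F and 0.97 in WT with a Bayes factor of 1.99.

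The gained exons lay in PLEK2, MKKS, COPE, SYTL2, NUP98, HM13 and TIMMDC1. A mean PSI of at least 0.9 with a gain of at least 0.10 leaves room only for an S34F value of 0.95 or more, so the high inclusion of these 7 exons in S34F follows from how they were chosen.

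TIMMDC1, an assembly factor of respiratory complex I, had the most weight. Its exon at chr3:119217774-119222379 (plus strand, exon start 119219542) had a PSI of 0.99 in S34F and 0.89 in WT, with 575 and 849 reads and a Bayes factor of 1884477. The same acceptor with a downstream acceptor further on lay just outside the rule, at 0.98 in S34F and 0.81 in WT with a Bayes factor of 9777043. Another event with this acceptor had 0.87 in S34F and 0.77 in WT, with a Bayes factor of 0.57. All 3 events with this acceptor were higher in S34F, but they share reads.

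MKKS, a chaperonin-like protein of the machinery that assembles the BBSome, had an exon at chr20:10389451-10401176 (minus strand, exon start 10394579) whose PSI was 0.98 in S34F and 0.84 in WT. The event had 345 and 505 reads and a Bayes factor of 2228. COPE is the epsilon subunit of the COPI coat. Its exon at chr19:19017921-19023793 (minus strand, exon start 19021880) had 0.98 in S34F and 0.85 in WT, with 831 and 1140 reads and a Bayes factor of 832. An alternative acceptor within the same outer junction of COPE had 0.67 in S34F and 0.87 in WT on only 34 and 33 reads.

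PLEK2, a pleckstrin family protein that binds membrane phosphoinositides, had the largest increase among all 6474 exons. The event at chr14:67855019-67859043 (minus strand, exon start 67857463) had a PSI of 0.98 in S34F and 0.83 in WT, with 312 and 352 reads and a Bayes factor of 35.6. A second PLEK2 exon was at 0.99 in S34F and 0.94 in WT, and another at 0.87 in S34F and 0.93 in WT, so the gene's exons did not share a direction. NUP98, a nuclear pore protein, had an exon at chr11:3756554-3774546 (minus strand, exon start 3765879) at 0.98 in S34F and 0.87 in WT, with 2640 and 4048 reads and a Bayes factor of 27.3.

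SYTL2, a Rab27 effector in vesicle docking, had 0.98 in S34F and 0.86 in WT at chr11:85459466-85521997 (minus strand, exon start 85469157), with a Bayes factor of 17.7. HM13, the signal peptide peptidase of the endoplasmic reticulum, had 0.97 in S34F and 0.86 in WT at chr20:30102537-30125982 (plus strand, exon start 30115287), with a Bayes factor of 8.47. Just at the edge of the rule, SLC8B1, a mitochondrial sodium-calcium exchanger, had 0.96 in S34F and 0.84 in WT inside it. Its Bayes factor of 1.34 was under the threshold. Outside the rule, SEPT10, a septin, had 0.97 in S34F and 0.82 in WT with a Bayes factor of 6.35. MEMO1 had 0.95 in S34F and 0.84 in WT with one of 1.26.

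The other 24 exons with a Bayes factor of at least 5 were higher in S34F by less than 0.10, and 6 of them tied at the table's largest Bayes factor. These included TUBA1B (alpha-tubulin), with 1.00 in S34F and 0.98 in WT, and PTTG1IP, with 0.99 in S34F and 0.93 in WT. TPT1, the translationally controlled tumour protein, stood at 0.94 in S34F and 0.86 in WT on 15774 and 22913 reads. RPL3 and RPL10, proteins of the large ribosomal subunit, stood at 1.00 in S34F and at 0.96 and 0.98 in WT. One RPS2 exon reached the same maximum at 1.00 in S34F and 0.99 in WT on 17052 and 24353 reads. The largest Bayes factor thus occurred at a difference as small as 0.01. Another RPS2 exon, at 0.99 in S34F and 0.98 in WT on 12663 and 18058 reads, had one of 342. Exons with a Bayes factor of at least 5 were more frequent at many reads, though most exons with many reads did not reach it. Of the 2271 exons with at least 1000 reads, 29 had one of at least 5. It was reached by 4 of 1576 exons with 500 to under 1000 reads and 6 of 1714 with 200 to under 500. With fewer reads, 0 exons reached it. The part of the reads in these Bayes factors was not tested. RPS2, RPL3, RPL10, TPT1 and TUBA1B have processed pseudogenes or close paralogs, so some of their reads may be shared with copies.

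**Figure D4:**
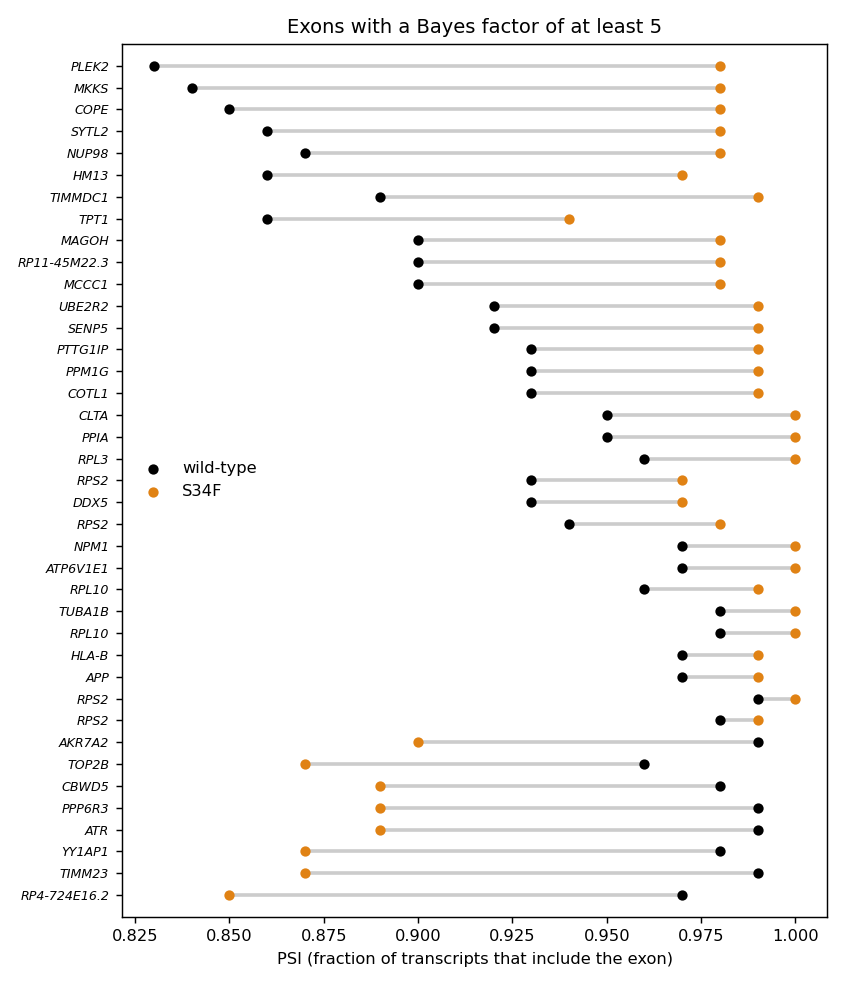
PSI in wild-type (black) and in S34F (orange) on the x axis for each of the 39 exons with a Bayes factor of at least 5, named by gene on the y axis and ordered by the difference. The 8 exons at the bottom are lower in S34F and the 31 above are higher, and the grey bar shows the size of the difference.

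The distances of these sets overlapped widely, and the difference between them was not tested. The median distance from donor to exon was 2864 bases (quartiles 963 and 7615) for the 81 exons lower by at least 0.10. It was 1913 bases (quartiles 702 and 5289.5) for the 39 that were higher by as much. Over exons within 0.02 it was 2595 bases (quartiles 874 and 6837).

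Differences could recur only in genes with 2 or more of the exons. Of these genes, 316 held an exon lower by at least 0.05, and 44 held 2 or more. An exon higher by at least 0.05 was held by 197, and 13 held 2 or more. In 32 genes exons of both kinds were present.

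Genes were also grouped by function, and the counts stand beside 9.85% lower and 5.38% higher by at least 0.05 over all 6474 exons. Splicing and RNA-binding proteins had 120 of the exons, with 6 lower and 6 higher by at least 0.05 and a median difference of 0. Adhesion, cytoskeleton and matrix genes had 160, with 12 lower and 9 higher, also with a median of 0. Membrane traffic and endocytosis had 115, with 8 lower and 10 higher, and mitochondrial and metabolic enzymes had 133, with 7 lower and 13 higher. Both had a median of 0.

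Chromatin and transcription regulators had 115 of the exons, with 15 (13.04%) lower and 3 (2.61%) higher by at least 0.05 and a median of -0.01. Cell cycle and DNA repair genes had 137, with 15 (10.9%) lower, 8 (5.84%) higher and a median of -0.01, close to the shares over all the exons. Median reads in S34F were 1029 and 741 in these 2 lists, next to 927 for the enzymes, 1010 for traffic, 1642.5 for splicing and 1675 for adhesion, and their part in the counts was not tested. ATR was the only lost exon in any of the 6 lists, and none held a gained one. Cytosolic ribosomal protein genes, a list chosen after values were seen, had 67 exons, of which 14 were lower, 35 equal and 18 higher, with 3 lower and 0 higher by at least 0.05. In 7 of these exons, from RPS2, RPL3 and RPL10, PSI was higher in S34F with a Bayes factor of at least 5, next to 31 of all 6474 exons. These 7 were not all separate units. Most of the RPS2 events among them shared an outer junction, as did the RPL10 events, so they share reads. The median in this list was 3800 reads in S34F, more than in any of the 6 lists. The part of these reads in the count was not tested.

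Whether the genes that held these exons differed in expression was asked with the 9 libraries. All 4015 genes were found in the expression table, and 3851 passed the minimum of 1 FPKM on average. No gene passed an adjusted p of 0.05 by limma with Benjamini-Hochberg adjustment over 15179 genes, where 0.0198% of all genes were called higher and 0.0329% lower. Without adjustment, 153 of the genes (3.97%) reached p under 0.05 with more expression in S34F dox+ and 111 (2.88%) with less, next to 4.01% and 2.77% of all genes. In this fit the shares were close to the background in both directions. The median log2 difference was 0.01 over these genes and 0.03 over all genes.

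TIMM23 had the largest log2 difference among the tested genes with lost exons. It was at 25.8 and 24.1 FPKM in S34F dox+ and at 37.4 and 33.6 FPKM in WT dox+, and the groups did not overlap. The log2 difference on the log2(FPKM + 1) scale was -0.49 (SE 0.13; limma, Benjamini-Hochberg adjusted p = 0.545), which did not pass. The parental libraries, at 26.86 and 22.04 FPKM, lay as low as S34F dox+, and the libraries of the lines without doxycycline lay between 34.6 and 39.4 FPKM.

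The other genes with lost exons differed little. PPP6R3 was at 139 and 115 FPKM in S34F dox+ and 135 and 148 FPKM in WT dox+, and the groups overlapped. YY1AP1 was at 68.9 and 65.6 FPKM in S34F dox+ and 60.1 and 63.0 FPKM in WT dox+, a log2 difference of 0.13 (limma, Benjamini-Hochberg adjusted p = 0.868) that was 0.011 in TPM. ATR was at 23.2 and 18.9 FPKM in S34F dox+ and 18.15 and 20.01 FPKM in WT dox+, with overlap.

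Of the genes with gained exons, TIMMDC1 was at 70.9 and 76.3 FPKM in S34F dox+ and at 92.66 and 85.03 FPKM in WT dox+ (log2 difference -0.27; limma, Benjamini-Hochberg adjusted p = 0.808). PLEK2 was at 24.1 and 15.1 FPKM in S34F dox+ and 17.6 and 16.4 FPKM in WT dox+. COPE, MKKS, HM13 and NUP98 had overlapping groups as well, and SYTL2 did so too with 25.9 and 28.4 FPKM in S34F dox+ and 28.1 and 30.6 FPKM in WT dox+. MAGOH, a core protein of the exon junction complex, had an exon at 0.98 in S34F and 0.90 in WT. Its expression was 52.7 and 48.1 FPKM in S34F dox+ and 73.1 and 65.5 FPKM in WT dox+ (log2 difference -0.45; limma, Benjamini-Hochberg adjusted p = 0.623). MPRIP, a myosin phosphatase-binding protein, had an exon at 0.98 in S34F and 0.90 in WT that was also listed under RP11-45M22.3. Its expression was 103 and 109 FPKM in S34F dox+ and 163 and 147 FPKM in WT dox+ (log2 difference -0.54; limma, Benjamini-Hochberg adjusted p = 0.338).

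**Figure D5:**
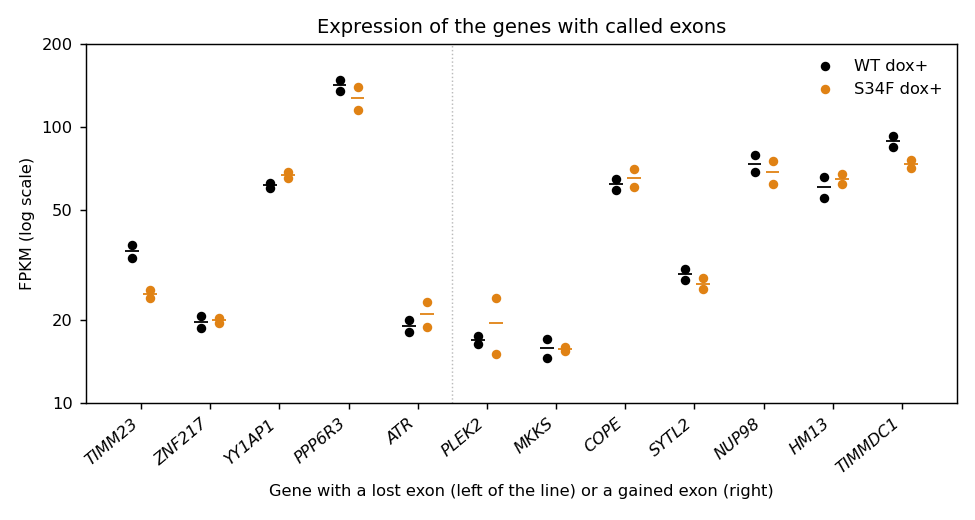
FPKM (y axis, log scale) of the 12 genes with a lost exon (left of the dotted line) or a gained exon (right) in the 2 WT dox+ (black) and 2 S34F dox+ (orange) libraries, with 1 point per library and a bar at the group's mean. TIMM23 and TIMMDC1 are lower and YY1AP1 is higher in both S34F dox+ libraries than in both WT dox+ libraries, and the points of the other 9 genes overlap.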

How the data were processed

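RNA-seq of 9 HCC78 libraries in 5 groups was used. Per the labels, the submitters' processing notes name STAR 2.3.0, RSEM 1.2.29 and hg19. The deposited FPKM and TPM values were made by the authors from these alignments. The deposited skipped-exon table holds, for each event, the PSI fraction, the read counts and the Bayes factor score that MISO gave in 1 comparison. The MISO version and how libraries were combined are not given in the sources used here, and the depth behind FPKM is unknown. Other splicing tables and the iCLIP samples were not used.

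Events listed under several genes were counted once, and PSI was compared in whole hundredths. Expression was tested on log2(FPKM + 1) for genes that averaged 1 FPKM or more, with limma 3.58.1 in R 4.3.3 (trend, two-sided, 5 groups in 1 fit, Benjamini-Hochberg over all genes). A log2(FPKM + 1) difference understates low genes. The fit was tested only on simulated data with changes far larger than those reported here, so that test says nothing of small changes. Named genes were the lost and gained exons, the 5 largest Bayes factors in each direction (6 exons tied among the higher ones, and all are named), the exons at the edge of the rule, and U2AF1. Others, such as MAGOH, MPRIP, TOP2B and CBWD5, were named after their values were seen. The members and the 6 gene lists were chosen with earlier results of these data known. Alternatives to the thresholds, scaling, pseudocount, block and libraries were tried.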

Additional observations from a re-analysis of the deposited data

How the results depend on the processing

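The counts of lost and gained exons depended on the thresholds. From 5 lost and 7 gained, they became 0 and 0 at a mean PSI of at least 0.95, 10 and 18 at 0.85, 55 and 0 with the wild-type side alone at 0.9, and 0 and 50 with the S34F side alone. With a Bayes factor of at least 20, 3 exons were lost, and at least 1 gave 20 and 19. A difference of at least 0.05 gave 8 and 18, 0.10 whatever the Bayes factor gave 81 and 39, and a Bayes factor of 5 whatever the difference gave 8 and 31. With 1000 reads on each side, 1 gained exon was left. The settings with 1000 reads, the S34F side alone and either threshold alone were chosen after seeing the data. No event had differing entries.

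The share of exons lower in S34F (46.2%) was 35.1% at 1000 reads, 41.5% at a mean of 0.95, 47.9% at 0.85, 55.2% by the wild-type side and 38.1% by the S34F side. The share higher (30.8%) was 33.7%, 26.4%, 33.0%, 24.0% and 39.6% in the same order. Choosing on 1 side fixes the direction in part.

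No gene with such an exon passed an adjusted p of 0.05 in any of 12 alternative limma fits. At an unadjusted p under 0.05, TPM gave 65 higher (1.69%, against 2.04% of all genes) and 357 lower (9.29%, against 6.99%) and moved the median of all genes from 0.03 to -0.07 on the log2 scale. Median-ratio scaling gave 116 higher and 142 lower, so the split turned. Leaving out 1 dox+ library gave 93 to 184 higher and 47 to 190 lower, with the lowest of both without WT dox+ replicate 2 and the most lower genes (4.94%, against 3.83% of all) without S34F dox+ replicate 1, where 4.78% against 6.58% were higher. Without WT dox+ replicate 1, 96 were higher. The remaining library was then assumed to vary like the other groups. The log2 differences of TIMM23, TIMMDC1, PPP6R3, YY1AP1, MAGOH, MPRIP and U2AF1 kept their sign in all 12 fits, but YY1AP1 went from 0.13 to 0.011 with TPM. PPP6R3 went from -0.16 to -0.29 or -0.021 when the first or the second S34F dox+ library was left out, and to -0.093 without WT dox+ replicate 2. The smallest adjusted p among them was 0.229, for MPRIP.

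Samples with the same replicate number did not deviate together (r = 0.037 between S34F dox+ and WT dox+). This cannot show whether the numbers pair the samples. The replicate block gave 148 higher and 99 lower. The cause of these shifts was not tested. With 1 PSI per side and no replicates, no PSI difference has an error.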

Other observations

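The mean of both sides leaves out exons that were nearly always included on 1 side only. Of 959 exons with a PSI of at least 0.9 in WT and a mean under 0.9, 50 were lost in S34F, and of 650 with a PSI of at least 0.9 in S34F and a mean under 0.9, 43 were gained. Over all skipped exons, 0.749% were lost and 0.807% gained. Choosing on 1 side with a mean under 0.9 fixes the direction, so nothing is read from these shares.

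The 3 with the largest difference each way were named after their values were seen. An event on the plus strand, listed under both WDR12 and CARF, had a PSI of 0.19 in S34F and 0.90 in WT on 71 and 115 reads. Which of these genes the exon belongs to was not settled. ZFP1, a zinc-finger protein, had 0.26 in S34F and 0.91 in WT on 114 and 186 reads, and PQLC3 had 0.29 in S34F and 0.90 in WT on 58 and 92 reads. The Bayes factors of the event under WDR12 and CARF, of ZFP1 and of PQLC3 were 92947476709, 5.4 (just over the threshold) and 3027. In the other direction, SMARCAL1, an annealing helicase that remodels stalled replication forks, had 0.90 in S34F and 0.27 in WT on 306 and 517 reads. ZNF426, a zinc-finger protein, had 0.90 in S34F and 0.27 in WT on 238 and 298 reads, and NRIP3 had 0.92 in S34F and 0.36 in WT on 160 and 125 reads. The Bayes factors of SMARCAL1, ZNF426 and NRIP3 were 1282, 419 and 10.4.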
